A study of Saccharomyces cerevisiae with 27 samples.

Results

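The genes described here are 32 subunits of the budding yeast proteasome together with RPN4 and UMP1, 34 genes among 6388 systematic names that the arrays cover. The small lid subunit SEM1 is not among them and is given with the associated proteins. They were matched by the common name and the systematic name that the arrays give. Every one of the 34 had a single spot of its own on each array and was among the 5865 genes tested. The subunits were split into the alpha ring of the core (7 genes), the beta ring of the core (7), the base (10) and the lid (8).

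The proteasome degrades proteins that carry a ubiquitin tag. Its barrel-shaped core holds the proteolytic sites inside the beta rings, between outer alpha rings that gate the entry. A regulatory particle caps the barrel: the ring of RPT ATPases in its base unfolds the substrate, and the lid removes the ubiquitin. Rpn4 is the transcription factor that binds a shared element in front of most proteasome genes and is itself a short-lived proteasome substrate, and Ump1 is the chaperone that matures the core and is degraded inside it.

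The series holds 27 spotted arrays of Saccharomyces cerevisiae, wild type in the W303 background, each read in 2 colors with RNA of one replicative age against RNA of young cells kept under matched conditions. Ages of 1, 12 and 18-20 generations had 7 arrays each, and the age of 8 generations had 6. The young cells, labelled 1 generation old, were on every array, so that both channels of the youngest arrays held young cells. The labels say that cells were sorted with magnetic beads and never left log phase. They name no allele, give no mating type that can be read without doubt, and do not say which arrays came from separate cultures, so that p-values measure the spread between arrays.

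Values are log2(aged/young) after normalization. A positive value means more signal in the aged cells, and 1 unit is a 2-fold difference. "Rose" and "fell" are written of genes with an adjusted p under 0.05 in limma's fit over all 5865 genes, and errors of fitted values are standard errors (SE). Arrays of one age were not equally alike. At 18-20 generations arrays 1 to 4 correlated with each other at 0.931 to 0.965 over genes and with arrays 5 to 7 at 0.632 to 0.73. At 1 generation only array 2 had inverted dyes, and it correlated at -0.67 with array 1. At 8 generations array 1 correlated at -0.661 to -0.58 with arrays 2 to 4, so its direction is not settled. Counts against young cells at that age are also given with its sign turned. Differences between 8 generations and another age are given only with its labelled direction. Markers moved too: the 4 alpha-cell genes tested all fell at 12 and at 18-20 generations, with array medians of -2.40 to -1.24 at 18-20 generations. Of 7 a-cell genes 4 rose at 18-20 generations (array medians 0.13 to 0.63), and of 10 genes specific to daughter cells 8 fell and 2 rose (array medians -1.91 to -0.72). The marker values are ratios and do not show absence, and the part of these genes in the proteasome results was not tested. In RNA from whole populations, a different mix of cells and a different amount of RNA per cell cannot be told apart.

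None of the 34 genes was called at the 2 younger ages. At 12 generations 16 rose, and at 18-20 generations 30 rose. No member fell at any age. Of all genes tested, 0% were called at 1 and at 8 generations, 23.3% rose at 12 generations (21.5% fell, 44.8% in either direction) and 32.9% rose at 18-20 generations (31.2% fell, 64.2% in either direction). The members that rose made up 47.1% and 88.2% of the 34 at the 2 older ages. The median log2 change of the 34 genes was 0.11, 0.34 and 0.77 at 8, 12 and 18-20 generations, against -0.01, 0.02 and 0.01 for all genes tested. By limma, 0 members at 1 generation and 2 at 8 generations had an unadjusted p under 0.05, where 13 and 748 of all 5865 genes tested had. At 12 generations the count of 16 was 10 without array 4 of that age, and likewise 10 with median centering in place of loess. At 18-20 generations the 30 that rose were 19 without arrays 1 to 4 of that age, and 1 gene, PUP3, then fell. For these and later counts in alternative analyses, the share of all genes called there is not given unless stated. Such counts show how calls move with the processing, not how the members differ from other genes.

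The size of the rise was moderate for most subunits. At 18-20 generations 6 of the 34 genes were more than 2-fold higher in aged cells, and at 12 generations 2 were. The 16 genes that rose at 12 generations were all among the 30 at 18-20 generations, which 14 further genes joined. In the fitted means, 31 of the 34 were higher at 18-20 than at 12 generations, where 2803 of all 5865 genes tested were. The median of the 34 genes was above 0 on each of the 7 arrays at both ages, from 0.13 to 0.64 at 12 generations and from 0.36 to 0.92 at 18-20 generations. Of 233 single values of the members at either age, 184 were above 0 at 12 generations and 213 at 18-20 generations, and 12 and 25 of the genes were above 0 on every array that measured them. Fitted values were above 0 for 29 of the 34 at 12 generations and for 32 at 18-20 generations. Of all 5865 genes tested, 2999 and 2967 were. The shares of all genes over 2-fold, of single values above 0, and of genes above 0 on every array are not given here.

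RPN4 had the largest change of the 34 genes at both older ages. At 1 generation its lowest, median and highest array gave -0.16, -0.07 and 0.27, and at 8 generations -1.54, -0.19 and 0.26. At 12 generations they gave -0.14, 1.95 and 2.62, and at 18-20 generations 1.88, 2.30 and 2.99. The 18-20-generation arrays lay above every array of 1 and 8 generations without overlap. The 12-generation arrays fell apart into 5 between 1.70 and 2.62 and 2 near 0, arrays 2 and 3, at -0.01 and -0.14.

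RPN4 rose by 1.50 ± 0.25 at 12 generations (adjusted p = 1.66e-05) and by 2.33 ± 0.25 at 18-20 generations (adjusted p = 4.07e-09), a 5.03-fold higher level in aged cells. Ordered from the largest rise down, it was number 65 of the 5865 genes at 18-20 generations and number 124 at 12 generations. The difference of 18-20 minus 12 generations was 0.83 ± 0.35 and did not pass the test (adjusted p = 0.0882). The difference of 12 minus 8 generations, with array 1 of 8 generations as labelled, was 1.76 ± 0.37 (adjusted p = 0.000827).

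UMP1 rose at 18-20 generations and was not called at 12. Its arrays ran from -0.16 to 0.16 with a median of -0.02 at 1 generation and from -0.58 to 0.33 with a median of 0.07 at 8 generations. At 12 generations they ran from -0.45 to 0.55 with a median of 0.37, and at 18-20 generations from 0.83 to 1.70 with a median of 1.20. No 18-20-generation array overlapped with an array of any earlier age.

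The fit gave UMP1 0.22 ± 0.12 at 12 generations, which did not pass the test (adjusted p = 0.142), and a rise of 1.27 ± 0.12 at 18-20 generations (2.41-fold, adjusted p = 6.25e-10). At 12 generations 5 of 7 arrays were above 0, and without array 6 of that age UMP1 passed limma's test as a rise (adjusted p = 0.0257). The difference of 18-20 minus 12 generations was 1.05 ± 0.17 (adjusted p = 0.000156). Among the 34 genes this was the largest difference between the 2 older ages. It was 0.49 and did not pass the test when all arrays were scaled to the same spread (adjusted p = 0.197).

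**Figure D1:**
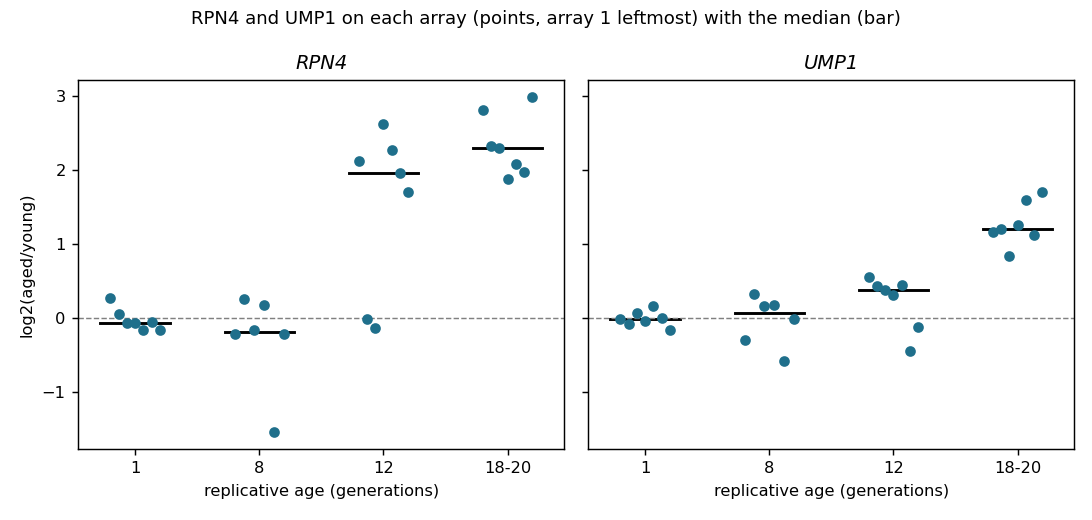
Log2(aged/young) of RPN4 (left) and UMP1 (right) on each array, by replicative age in generations. Points are arrays in the order of their numbers and bars are medians. At 12 generations RPN4 was at 1.70 or above on 5 arrays and near 0 on arrays 2 and 3, while UMP1 reached 0.83 to 1.70 only on the 18-20-generation arrays.

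In the alpha ring, whose tails gate the channel into the core, 4 of 7 genes rose at 12 generations and 6 of 7 at 18-20 generations. The median change was 0.37 and 0.65. PRE5 and PRE10, the genes of subunits alpha 6 and alpha 7, changed most at the oldest age, and PUP2 and PRE9, of alpha 5 and alpha 3, least.

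The lowest, median and highest array for PRE5 was 0.05, 0.28 and 0.86 at 12 generations and 0.44, 0.84 and 1.42 at 18-20 generations. It rose by 0.37 ± 0.13 (adjusted p = 0.0262) and by 0.94 ± 0.13 (adjusted p = 6.85e-07). The call at 12 generations was lost in 6 of 45 alternative analyses, among them those without array 4 or 5 of that age. All 14 arrays were above 0, and the arrays of the 2 ages overlapped. PRE10 gave 0.20, 0.71 and 1.14 at 12 generations and 0.62, 0.95 and 1.33 at 18-20 generations, with rises of 0.65 ± 0.10 (adjusted p = 7.45e-06) and 0.92 ± 0.10 (adjusted p = 8.44e-09). Its arrays were likewise all above 0, and the 2 ages overlapped.

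PUP2 stood at much the same level at both older ages. Its arrays gave 0.22, 0.36 and 0.85 at 12 generations and 0.04, 0.41 and 0.72 at 18-20 generations, and it rose by 0.46 ± 0.14 (adjusted p = 0.00766) and 0.41 ± 0.14 (adjusted p = 0.0116). The rise at 18-20 generations did not pass the test when arrays were scaled to the same spread or when arrays 1 to 4 of that age were left out.

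PRE9 was the exception in the alpha ring. Its gene product is the alpha subunit that yeast can do without. At 18-20 generations its arrays gave -0.72, -0.36 and 0.13, with 1 of 7 above 0, and the fitted value was -0.31 ± 0.23 (adjusted p = 0.245). At 12 generations the fitted value was -0.13 ± 0.23 (adjusted p = 0.678). Without array 6 of 8 generations, on which PRE9 read 3.03, the value at 18-20 generations was -0.33 and passed as a fall (adjusted p = 0.032).

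In the beta ring, which carries the proteolytic sites, 5 of 7 genes rose at 12 generations and 6 of 7 at 18-20 generations, with median changes of 0.37 and 0.85. The genes of the 3 catalytic subunits, PRE3 (caspase-like), PUP1 (trypsin-like) and PRE2 (chymotrypsin-like), stood at 0.55, 0.30 and 0.87 at 12 generations and at 0.62, 0.51 and 0.88 at 18-20 generations. PRE3 and PRE2 rose at both ages and PUP1 at 18-20 generations. For none of the 3 did the 2 ages differ by the test (adjusted p = 0.862, 0.519 and 0.973).

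PRE1 and PRE7, beta subunits without a proteolytic site, changed most at 18-20 generations. PRE1 was measured on 6 arrays of either age, at 0.18, 0.60 and 1.40 for the lowest, median and highest at 12 generations and at 0.63, 0.85 and 1.56 at 18-20 generations. It rose by 0.67 ± 0.13 (adjusted p = 0.000199) and 1.02 ± 0.13 (adjusted p = 2.58e-07). The ages overlapped, and 5 of the 27 arrays had saturated pixels in its spot. PRE7 gave -0.18, 0.21 and 0.80 at 12 generations and 0.19, 1.12 and 1.22 at 18-20 generations, with rises of 0.37 ± 0.13 (adjusted p = 0.026) and 0.91 ± 0.13 (adjusted p = 1.12e-06). The call at 12 generations was lost in 8 of 45 alternative analyses, among them those without array 1, 4 or 5 of that age.

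PUP1, the lowest beta gene that rose at the oldest age, gave -0.26, 0.58 and 1.23 over the 7 arrays at 18-20 generations, 6 of them above 0. Its rise of 0.51 ± 0.15 (adjusted p = 0.00364) did not pass the test with median centering, with arrays scaled, with alike arrays averaged, or without arrays 1 to 4.

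PUP3, a structural beta subunit, split the oldest arrays. It read 0.77, 0.67, 0.15 and 0.69 on arrays 1 to 4 and -0.59, -0.53 and -1.80 on arrays 5 to 7. The arrays divide with no overlap along the same line as their correlation over all genes. The fitted value over all 7 was -0.10 ± 0.21 (adjusted p = 0.692). With arrays 5 to 7 left out it was a rise of 0.57 (adjusted p = 0.00622), and with arrays 1 to 4 left out a fall, at -1.02 (adjusted p = 0.00105). At 12 generations PUP3 gave -0.42, -0.31 and 0.42 and a fitted -0.18 ± 0.21 (adjusted p = 0.512).

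**Figure D2:**
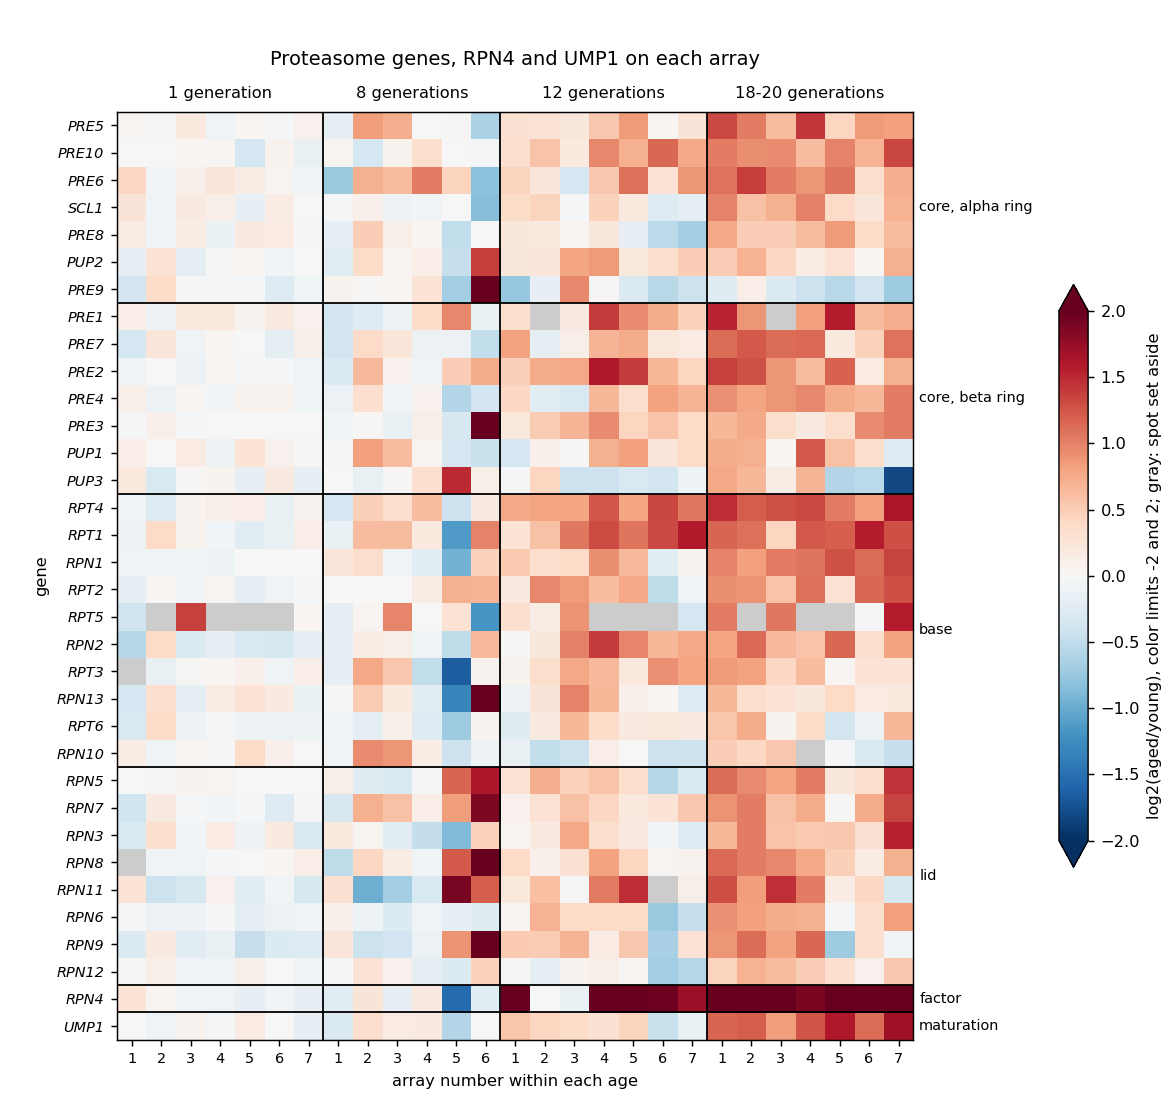
Log2(aged/young) of each of the 34 genes (rows, by subcomplex, sorted within it by the fitted value at 18-20 generations) on each of the 27 arrays (columns, by age), with color limits at -2 and 2 and gray for spots set aside. Red prevails at 18-20 generations, PUP3 is red on arrays 1 to 4 and blue on arrays 5 to 7 of that age, and arrays 5 and 6 of 8 generations hold the strongest colors among the younger ages.

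In the base, 6 of 10 genes rose at 12 generations and 8 of 10 at 18-20 generations, with median changes of 0.40 and 0.80. Of the 6 ATPase genes RPT1 to RPT6, 4 rose at 12 and 6 at 18-20 generations, and of RPN1, RPN2, RPN10 and RPN13 2 rose at either age. Those 2 were RPN1 and RPN2, the large scaffold subunits, of which Rpn1 binds ubiquitin shuttles. RPN10 and RPN13, the ubiquitin receptors of the base, did not pass the test at either age. At 18-20 generations RPN10 passed as a rise in 2 of 45 alternative analyses and RPN13 in 3 of 45. Without arrays 1 to 4 of 18-20 generations, 5 of the 10 base genes rose (share of all genes not given).

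RPT4 was the subunit gene with the largest change at 18-20 generations. Its lowest, median and highest array was -0.25, 0.07 and 0.13 at 1 generation, -0.42, 0.25 and 0.61 at 8 generations, 0.76, 0.80 and 1.34 at 12 generations and 0.83, 1.27 and 1.63 at 18-20 generations. Every array of the 2 older ages lay above every array of the 2 younger ages. It rose by 0.96 ± 0.11 at 12 generations (adjusted p = 2.14e-07) and by 1.24 ± 0.11 at 18-20 generations (adjusted p = 3.66e-10, 2.37-fold). RPT1 rose by 1.06 ± 0.15 (adjusted p = 2.83e-06) and 1.17 ± 0.15 (adjusted p = 1.68e-07), on arrays at 0.27, 1.07 and 1.58 and at 0.43, 1.20 and 1.57. All 14 of these RPT1 values were above 0, and the 2 ages overlapped.

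For neither ATPase did the 2 older ages differ by the test (difference 0.29 for RPT4, adjusted p = 0.221, and 0.11 for RPT1, adjusted p = 0.761). RPT6 was the lowest of the ATPase genes, with a fitted value of 0.24 ± 0.12 at 12 generations (adjusted p = 0.0901) and a rise of 0.30 ± 0.12 at 18-20 generations (adjusted p = 0.0256). Its arrays ran from -0.36 through a median of 0.36 to 0.75 at 18-20 generations, 5 of 7 above 0. The call was lost in 10 of 45 alternative analyses, among them those without array 1, 2 or 7 of that age. RPT5 was measured on 4 arrays at 18-20 generations, at 1.03, 1.05, -0.03 and 1.57, and rose by 0.81 ± 0.32 (adjusted p = 0.0343), a call that was lost in 11 of 43 alternative analyses, among them those without array 1, 3 or 7.

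RPN10 gave -0.46, 0.19 and 0.54 as lowest, median and highest of 6 arrays at 18-20 generations, 3 above 0, and a fitted 0.12 ± 0.16 (adjusted p = 0.516). The arrays divided as for PUP3, with 0.49, 0.41 and 0.54 on arrays 1 to 3 and -0.03, -0.30 and -0.46 on arrays 5 to 7. RPN10 passed as a rise at that age with arrays 5 to 7 left out and with array weights. At 12 generations it gave -0.50, -0.41 and 0.14 over 7 arrays and a fitted -0.25 ± 0.14 (adjusted p = 0.168). RPN13 was above 0 on all 7 arrays at 18-20 generations, from 0.16 to 0.67, with a fitted 0.35 (adjusted p = 0.147). One array, number 6 of 8 generations, read 2.23 for RPN13. Without that array RPN13 passed the test as a rise at 18-20 generations.

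In the lid none of the 8 member genes was called at 12 generations and all 8 rose at 18-20 generations, with median changes of 0.26 and 0.71. SEM1, a lid subunit outside the members, rose at both ages, as given below. By limma 2 of the 8 had an unadjusted p under 0.05 at 12 generations, where 3021 of all 5865 genes tested had one. The lowest adjusted p of the 8 was 0.0694, for RPN7. At 12 generations RPN7 passed as a rise in 7 of 45 alternative analyses and RPN11 in 6 of 45, and no other lid member did in any. The lid median lay between 0.15 and 0.43 on arrays 1 to 5 of 12 generations, at -0.57 on array 6 and at -0.09 on array 7. At 18-20 generations it lay between 0.76 and 0.98 on arrays 1 to 4 and at 0.19, 0.33 and 0.76 on arrays 5 to 7. Without arrays 1 to 4 the number of lid genes that rose was 2, and without arrays 5 to 7 it was 8 (shares of all genes not given).

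RPN5 and RPN7, scaffold subunits of the lid, had the largest changes. RPN5 gave -0.57, 0.35 and 0.72 at 12 generations and 0.23, 0.95 and 1.44 at 18-20 generations, with a fitted 0.21 ± 0.18 (adjusted p = 0.367) and a rise of 0.84 ± 0.18 (adjusted p = 0.000235). RPN7 gave 0.08, 0.28 and 0.58 at 12 generations and 0.02, 0.74 and 1.36 at 18-20 generations, with a fitted 0.35 ± 0.16 (adjusted p = 0.0694) and a rise of 0.78 ± 0.16 (adjusted p = 9.14e-05). For both genes the arrays of the 2 ages overlapped. The rise of RPN5 did not pass without arrays 1 to 4 (adjusted p = 0.072).

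RPN9 and RPN12 had the smallest rises of the lid. RPN9 gave -0.71, 0.81 and 1.14 at 18-20 generations, with 5 of 7 arrays above 0 and arrays 5 and 7 below, and rose by 0.53 ± 0.21 (adjusted p = 0.0318). That call was lost without any one of arrays 1 to 4, and without all 4 of them the value was -0.089. RPN12, needed to complete the lid, gave -0.68, 0.03 and 0.12 at 12 generations and 0.08, 0.50 and 0.69 at 18-20 generations. It had a fitted -0.16 ± 0.10 at 12 generations (adjusted p = 0.216) and rose by 0.47 ± 0.10 at 18-20 generations (adjusted p = 0.000263).

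The gene of the deubiquitinase itself, RPN11, rose by 0.68 ± 0.25 at 18-20 generations (adjusted p = 0.0194) and stood at 0.57 ± 0.27 at 12 generations (adjusted p = 0.0837). Its 18-20-generation arrays ran from -0.32 on array 7 to 1.46 on array 3, with a median of 0.83. The rise did not pass the test without any one of arrays 1 to 4.

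**Figure D3:**
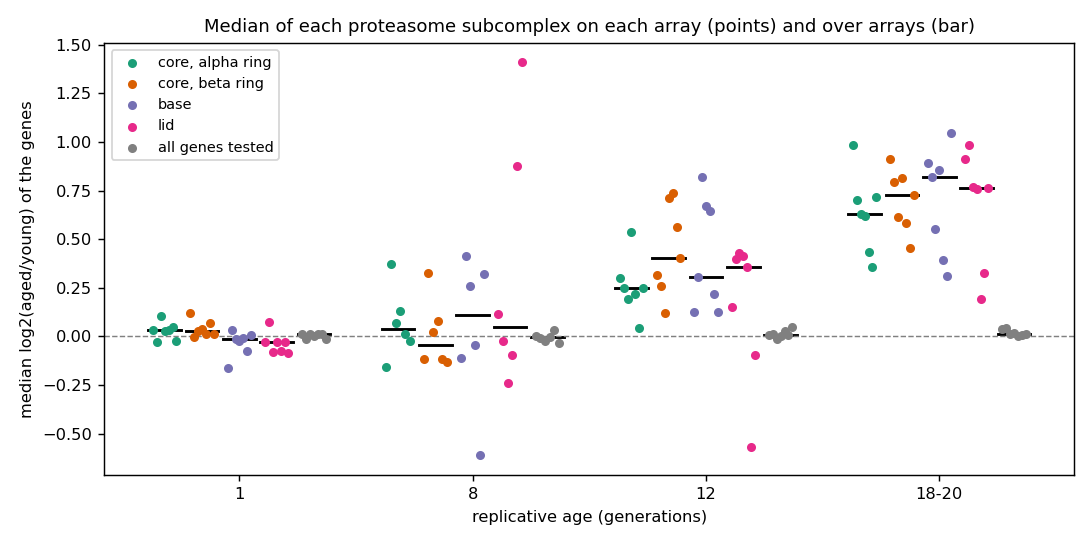
Median log2(aged/young) of the genes of each proteasome subcomplex and of all genes tested on each array (points), with the median over arrays (bar), by age in generations. All subcomplex medians are above 0 on the 7 arrays of 18-20 generations, and at 12 generations the lid is below 0 on arrays 6 and 7, at -0.57 and -0.09. At 8 generations the lid reaches 1.41 on array 6, and all genes tested stay near 0.

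The 2 older ages were also set against each other. For 18-20 minus 12 generations 10 of the 34 genes rose and none fell, where 8.53% of all genes tested rose (11.2% fell, 19.7% in either direction). The 10 were SCL1, PRE8 and PRE5 of the alpha ring, PRE7 and PRE4 of the beta ring, RPN1 of the base, RPN3, RPN6 and RPN12 of the lid, and UMP1. Of the 6 ATPase genes none was called, and the largest of their differences was 0.54.

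The differences of the called subunits lay between 0.51 and 0.71. For PRE5 the difference was 0.57 ± 0.19 (adjusted p = 0.0321), for PRE7 0.54 ± 0.19 (adjusted p = 0.0423) and for RPN12 0.63 ± 0.15 (adjusted p = 0.0035). The call was lost in 21 of 44 alternative analyses for PRE7 and in 11 of 44 for PRE5, for both among them those without array 2, 3, 6 or 7 of 12 generations and without array 1, 2 or 4 of 18-20 generations, and for PRE7 also without array 3 or 7 of 18-20 generations. The count of 10 depended on single arrays and on scaling. It was 5 without array 6 of 12 generations or without array 4 of 18-20 generations, 6 without array 7 of 12 generations or without array 1 or 2 of 18-20 generations, and 0 with arrays scaled to the same spread. With arrays 1 to 4 of 18-20 generations left out, 3 genes rose and PUP3 fell.

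Set against the 1-generation arrays, which carry young cells in both channels and so measure the background of the assay, 22 of the 34 genes rose at 18-20 generations and none fell, where 26.4% of all genes tested rose (25.3% fell, 51.7% in either direction). The median difference was 0.78. Of the 1-generation arrays only array 2 had inverted dyes, so the mean of that age depends on how the fit handles the dye. RPN4 differed by 2.40 (adjusted p = 3.21e-06), UMP1 by 1.28 (adjusted p = 1e-06) and RPT4 by 1.31 (adjusted p = 3.5e-07). By subcomplex 5 of 7 alpha genes, 4 of 7 beta genes, 5 of 10 base genes and 6 of 8 lid genes rose in this comparison. With arrays scaled to the same spread 13 of the 34 rose. Against the same 1-generation arrays, 7 of the 34 rose and none fell at 12 generations, where 14.2% of all genes tested rose (13.1% fell, 27.3% in either direction).

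For 12 minus 8 generations 9 of the 34 genes rose, where 12.6% of all genes tested rose (13.9% fell, 26.4% in either direction), and for 8 minus 1 generations none was called, where 0% of all genes were and limma gave 257 an unadjusted p under 0.05. Besides RPN4 these were PRE10, PRE1, PRE2, RPT1, RPT3, RPT4, RPT6 and RPN2. The ATPase genes made up 4 of the 9, and no lid gene was among them. Both comparisons use array 1 of 8 generations as labelled, and neither is given with its sign turned.

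**Figure D4:**
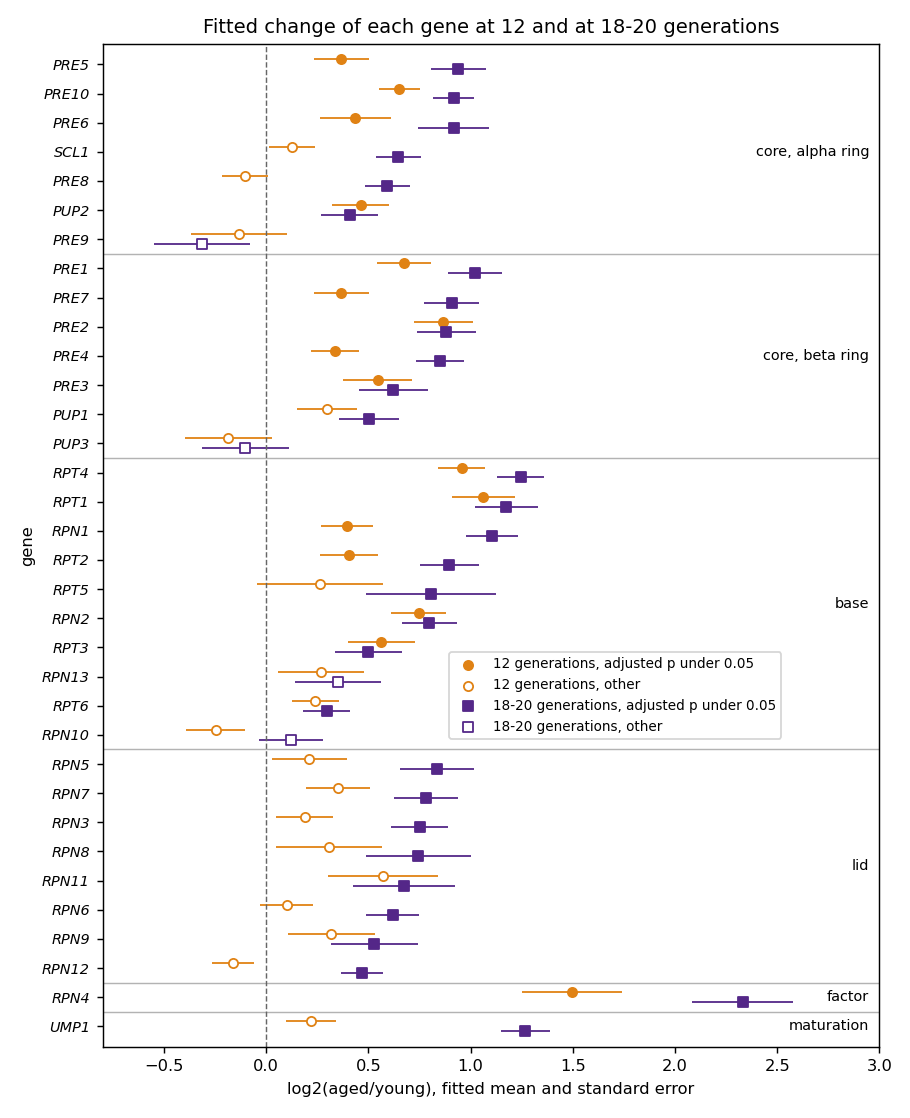
Fitted log2(aged/young) of each of the 34 genes with its standard error at 12 generations (circles) and 18-20 generations (squares), filled where the adjusted p was under 0.05. The lid squares are all filled and the lid circles all open, RPT1 and RPT4 are near or above 1 at both ages, and PRE9, PUP3, RPN10 and RPN13 are open at both ages.

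At 8 generations the members scattered widely. Arrays 5 and 6 gave the largest values: on array 6 RPN8 read 3.46, PRE9 3.03, RPN13 2.23, PRE3 2.04 and RPN9 2.00, and on array 5 RPN11 read 1.90, RPT3 -1.65 and RPN4 -1.54. The lid genes RPN8, at 0.79 (adjusted p = 0.214), and RPN7, at 0.61 (adjusted p = 0.115), had the largest fitted values of the 34 and did not pass. With the sign of array 1 turned both rose, by 0.95 (adjusted p = 0.0278) and 0.71 (adjusted p = 0.00605), where 4.64% of all genes tested rose.

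Arrays 2 and 3 of 12 generations, on which RPN4 was near 0, correlated with each other at 0.804 and with the other 5 arrays of that age at 0.447 or less. On these arrays the median of the 34 genes was 0.28 and 0.39, within the 0.13 to 0.64 of the other 5 arrays. RPT4 read 0.80 and 0.79 on them, PRE2 0.75 and 0.78 and RPT1 0.58 and 1.06. These subunit genes, picked after their values were seen, were above 0 on both arrays. Of the members measured, 27 of 33 were above 0 on array 2 and 27 of 34 on array 3. PRE4, which rose at 12 generations, divided as RPN4 did, with -0.22 and -0.30 on arrays 2 and 3 and 0.35 to 0.80 on the other 5.

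A few genes outside the 34, looked at after their values were seen, were also read on these arrays. TMA17, an assembly chaperone of the base, read -0.17 and 0.10 on arrays 2 and 3 of 12 generations and 0.83 to 2.78 on the other 5. UBP6, the proteasome-bound deubiquitinase, read 0.27 and 0.32 on arrays 2 and 3 and 1.00 to 1.68 on the other 5. CIC1 gave 0.39 and 0.05 on arrays 2 and 3 and -2.38 to -0.83 on the rest. The ubiquitin receptor gene DDI1 gave 0.98 and 0.70 on arrays 2 and 3 and 0.32 to 0.70 on the others.

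The pathway around the proteasome was read from further lists at 18-20 generations, where 32.9% of all genes tested rose and 31.2% fell. Of 9 assembly chaperones 2 rose and 3 fell, with a median of 0.24. TMA17 rose by 2.51 ± 0.27 (adjusted p = 1.07e-08), more than RPN4, on arrays between 1.87 and 3.49 (n = 6). RPN14, a chaperone of the ATPase ring, rose by 0.60 ± 0.13 (adjusted p = 0.000286). POC4, which with Irc25 helps build the alpha ring, fell by 0.71 ± 0.12 (adjusted p = 8.3e-06), with 6 of 7 arrays below 0.

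Of 7 proteins that associate with the proteasome 3 rose and 2 fell. UBP6 rose by 1.89 ± 0.15 (adjusted p = 1.94e-11), with every array between 1.18 and 2.27. ECM29, which tethers core and regulatory particle, rose by 0.96 ± 0.15 (adjusted p = 3.21e-06). CIC1, named as a proteasome-interacting protein and also a factor of ribosome assembly in the nucleolus, fell by 2.37 ± 0.25 (adjusted p = 4.95e-09), with arrays between -3.17 and -1.04. SEM1, a small lid subunit outside the 32, rose by 0.80 ± 0.26 (adjusted p = 0.00813) at 18-20 generations and by 1.08 ± 0.26 (adjusted p = 0.00119) at 12 generations.

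Of the shuttle and Cdc48 group, which brings ubiquitinated proteins to the proteasome, 8 of 10 genes were tested, and 7 rose and 1 fell, with a median of 0.58. DDI1, a ubiquitin receptor with a protease fold, rose by 1.66 ± 0.13 (adjusted p = 2.58e-11) on arrays between 1.16 and 2.25. SHP1, a Cdc48 cofactor, rose by 1.02 ± 0.18 (adjusted p = 1.39e-05), and CDC48, the segregase, by 0.98 ± 0.12 (adjusted p = 1.12e-07). The gene that fell was the shuttle RAD23, at -0.33 ± 0.08 (adjusted p = 0.00117). It fell at 12 generations too, at -0.64 ± 0.08 (adjusted p = 9.02e-07).

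Of 11 tested genes for ubiquitin itself and its E1 and E2 enzymes 8 rose and 2 fell, with a median of 0.42. UBI4, the stress-inducible polyubiquitin gene, rose by 2.17 ± 0.26 (adjusted p = 3.18e-08). Its arrays divided as for PUP3, with 1.12 to 1.44 on arrays 1 to 4 and 2.55 to 4.00 on arrays 5 to 7. UBC8, an E2 enzyme of glucose regulation, rose by 1.47 ± 0.19 (adjusted p = 1.41e-07), and RAD6, an E2 enzyme of DNA repair and of the N-degron pathway, fell by 1.07 ± 0.13 (adjusted p = 7.3e-08).

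Of 9 ubiquitin ligase genes tested 2 rose and 2 fell, with a median of -0.14. SSM4, a ligase of the endoplasmic reticulum, fell by 1.06 ± 0.14 (adjusted p = 3.01e-07). UFD4 rose by 0.52 ± 0.12 (adjusted p = 0.000331) and UFD2, which extends ubiquitin chains, by 0.50 ± 0.18 (adjusted p = 0.0187).

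Of 7 genes known to act on RPN4 or its product 3 rose and 1 fell. Yap1, Hsf1, Pdr1 and Pdr3 are transcription factors with sites in front of RPN4, and Ubr2, Mub1 and Rad6 form the ligase that tags Rpn4 for degradation. YAP1 rose by 1.39 ± 0.11 (adjusted p = 2.64e-11) and HSF1 by 1.20 ± 0.14 (adjusted p = 2.05e-08) at 18-20 generations, and at 12 generations by 0.39 ± 0.11 (adjusted p = 0.0052) and 0.59 ± 0.14 (adjusted p = 0.00098). PDR3 rose by 0.42 ± 0.09 (adjusted p = 0.000338). Of the ligase genes RAD6 fell, as given above, and UBR2 (-0.23, adjusted p = 0.0925) and MUB1 (-0.12, adjusted p = 0.602) did not pass the test.

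YAP1 differed between the older ages by 1.00 ± 0.16 (adjusted p = 0.00011). On arrays 2 and 3 of 12 generations, where RPN4 was near 0, YAP1 read 0.37 and 0.56 and HSF1 0.31 and 0.83, above 0 as on the other arrays of that age.

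**Figure D5:**
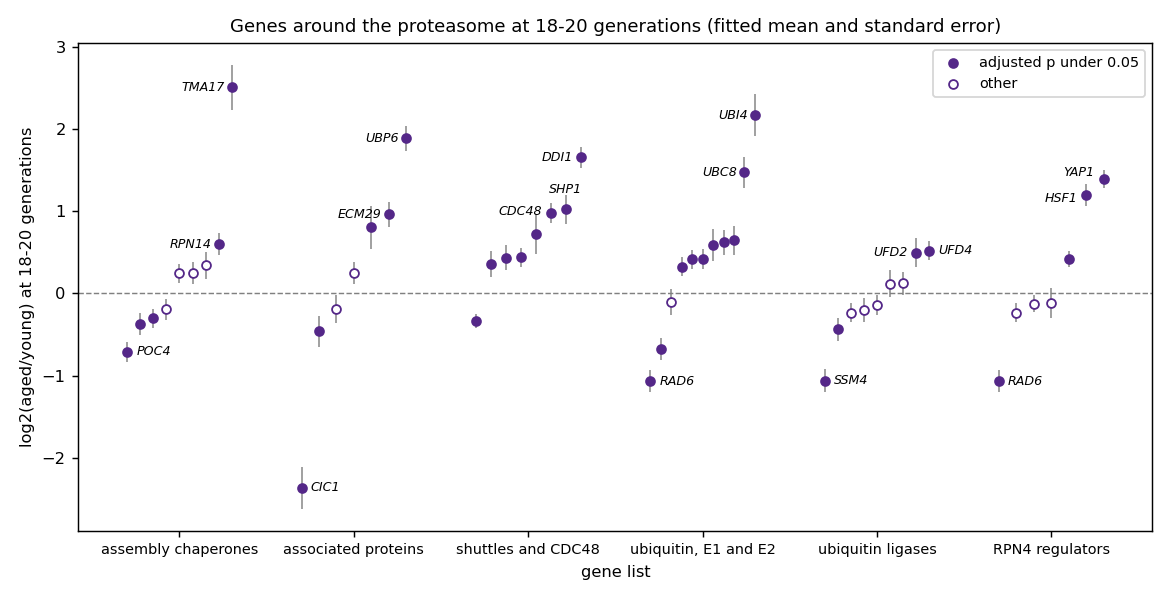
Fitted log2(aged/young) with its standard error at 18-20 generations for the tested genes of 6 lists around the proteasome, filled where the adjusted p was under 0.05 and named for the 3 largest changes of each list. TMA17 (2.51), UBI4 (2.17) and UBP6 (1.89) are the highest and CIC1 (-2.37) the lowest, and the shuttle and Cdc48 list has 7 of its 8 genes above 0.

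In RefSeq's table of yeast genes (assembly R64), no 2 of the 34 genes were direct neighbors, and a single gene separated members in 2 places. On chromosome XV, GCD1, for a translation initiation factor subunit, lies between RPT4 and RPN8. GCD1 fell at 18-20 generations, at -0.79 ± 0.10 (adjusted p = 8.19e-08), where RPT4 and RPN8 rose by 1.24 and 0.74. On chromosome VI, RET2, for a vesicle coat subunit, lies between PRE4 and RPN12 and fell by 0.44 ± 0.16 (adjusted p = 0.0212), where PRE4 and RPN12 rose by 0.85 and 0.47.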

How the data were processed

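The authors deposited 1 scanner file per array. Per the file headers it holds each spot's median intensity and nearby background in both dyes, and the percentage of its pixels above background or saturated, all without normalization. They also deposited 1 table of values, which compared with the scanner values holds log2 ratios, aged over young, for 23 of its 27 columns. The other 4 correlated best with another array of their age, 1 with 3 at 8 generations (r 0.97 and 0.943, against -0.581 and -0.572 with their own) and 3 with 4 at 1 generation, so these columns may be exchanged. How it was normalized was not stated in the labels, and it served as an alternative only.

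The scanner intensities were analysed with limma 3.58.1 (R 4.3.3): normexp background correction with offset 50, then loess of span 0.3 within each array. Marked spots were left out (174 to 1157 of 6580 an array), and each ratio was turned to aged over young from the labelled dye. A gene was tested if it was measured on 3 or more arrays at each age, which left 5865. All 27 arrays entered a single linear model with 1 coefficient per age plus dye, moderated by eBayes. Tests were two-sided, with p-values adjusted by the Benjamini-Hochberg method across the tested genes, and 0.05 as the threshold. The number of arrays limits the precision (median SE 0.155 at 18-20 generations). The model was tested on simulated data with noise independent between arrays. Those data leave out the likeness of some arrays, so the test cannot show how the p-values behave under it.

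RPN4, UMP1, the 2 highest and 2 lowest genes of each subcomplex at 18-20 generations and up to 3 genes of each further list are named by rule, and other genes were named after their values were seen. The members and lists were chosen with earlier results of these data known. Promoter and protein sequences were not used here.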

Additional observations from a re-analysis of the deposited data

Results flagged for a closer look

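Of 72 groups of arrays checked for the named genes, 6 held an array far from the others of its age, where chance gives about 1 in 20 groups. At 8 generations RPN4 read -1.54 on array 5, below -0.22 to 0.26 on the others. On the same array PUP3 read 1.49, above -0.15 to 0.34, and on array 6 PRE9 read 3.03, above -0.68 to 0.27. At 18-20 generations RPT1 read 0.43 on array 3, below 1.10 to 1.57. At 1 generation RPT6 read 0.36 on array 2, the only array of that age with inverted dyes, above -0.31 to -0.02. At 12 generations RPN9 read -0.65 on array 6, below 0.16 to 0.68.

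By limma's test of the difference, 4 named genes passed as higher at 18-20 than at 12 generations. UMP1 differed by 1.05 (adjusted p = 0.000156), RPN12 by 0.63 (adjusted p = 0.0035), PRE5 by 0.57 (adjusted p = 0.0321) and PRE7 by 0.54 (adjusted p = 0.0423). The call was lost in 1 of 44 alternative analyses for UMP1, in 3 of 44 for RPN12, in 11 of 44 for PRE5 and in 21 of 44 for PRE7.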

How the results depend on the processing

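At 18-20 generations (30 rose) 20 members rose with arrays scaled to the same spread and 23 with alike arrays averaged, and without arrays 1 to 4 of that age 19 rose and PUP3 fell. Leaving out single arrays gave 26 to 32 calls, of which the 32 hold 31 rises and the fall of PRE9. At 12 generations (16) median centering gave 10, and single arrays left out gave 10 to 17. At 8 generations (0) array weights gave 6, brightness set as a block 6 and array 1 turned 2, and single arrays left out gave 0 to 2. For 18-20 minus 12 generations (10) median centering gave 4, scaling to the same spread 0, array weights 17, alike arrays averaged 2, and arrays 1 to 4 of 18-20 generations left out 4, an alternative chosen after seeing the data, and single arrays left out gave 5 to 12. For 18-20 minus 1 generations (22) scaling gave 13. PUP3 at 18-20 generations turned to 0.41 with array weights and to 0.57 without arrays 5 to 7, and its difference from 12 generations to -0.83 without arrays 1 to 4. RPN9 at 18-20 generations turned to -0.089 without arrays 1 to 4. The share of all genes called under each setting is not given beside the counts of this section. They show how the counts move with the processing, not how the members differ from other genes. The causes were not tested. With the replicate block 16 members were called at 12 generations, 28 at 18-20 generations, 23 for 18-20 minus 1 and 8 for 18-20 minus 12 generations. Same-numbered arrays of different ages correlated at -0.277 to 0.226 and 2 of 27 arrays correlated best with their own number, so the numbers were not taken to pair arrays. A fit to the arrays of a single age gives no value for differences between ages. Alike arrays were those of an age joined at a correlation of 0.85. Averaging them left 3 from the 7 arrays of 18-20 generations and 5 from the 7 of 12 generations. The main fit counts every array as separate.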
